A study of Mus musculus with 18 samples.

Results

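The AP-1 transcription factors were followed through both processes that the study profiled by RNA-seq, the differentiation of mouse embryonic stem cells into macrophages and the conversion of mouse fibroblasts towards blood. The family was taken as 9 genes by name, *Jun*, *Junb*, *Jund*, *Fos*, *Fosb*, *Fosl1*, *Fosl2*, *Batf* and *Atf3*, out of 20066 gene names in the table of the differentiation stages and 20268 in the table of the fibroblasts. All 9 were found in both tables, each as a single row, and no measured value entered the choice.

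AP-1 is not a single protein but a dimer of basic leucine zipper (bZIP) proteins, which grip each other through the zipper and DNA through the basic region. JUN, JUNB and JUND can pair among themselves or with a FOS protein, whereas FOS, FOSB, FOSL1 (also called FRA1) and FOSL2 (FRA2) need a partner from the JUN group. BATF and ATF3 also pair with JUN proteins but lack the strong activation domain of FOS. *Fos*, *Jun*, *Junb*, *Fosb* and *Atf3* are immediate early genes, switched on within minutes by growth factors, inflammatory signals or physical stress, and AP-1 is known for its part in macrophage activation and in fibroblast growth.

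The stages were made in culture from an ES cell line of strain 129 that carries GFP under the control of *Brachyury* and was grown on MEFs. Besides undifferentiated cells (ESC), they comprised sorted mesoderm (MES, Bry.GFP+ FLK1-), hemangioblast (HB, Bry.GFP+ FLK1+), hemogenic endothelium (HE, Tie2+ cKit+ CD41-), hematopoietic progenitors (HP, CD41+) and macrophages (MAC, CD11b+). Apart from HE, the deposited value of a stage combined its 2 replicates, so no error can be given for it and no test between stages was possible; the HE value came from a sample that the authors had released earlier, and its library and batch cannot be told apart from the stage. The second experiment used mouse embryonic fibroblasts (MEFs) of strain 129 taken at embryonic day 14.5. They were left untreated (uFIB) or carried *Scl* (the gene also called *Tal1*) and *Lmo2* (SL), all of *Scl*, *Fli1*, *Gata2* and *Lmo2* (SFGL), or *Fli1*, *Gata2* and *Lmo2* without *Scl* (FGL), and were harvested at day 12 and day 21, with 1 library per treatment and day. The MEFs were wild type or from iTal1-2A-GFP mice, in which doxycycline induces *Tal1* through rtTA, and the labels do not say which library came from which. Per the study's methods, the starting MEFs had been sorted as negative for CD45, CD41, CD31 and CD117, *Fli1*, *Gata2* and *Lmo2* came from lentiviral vectors, and the cultures received hematopoietic cytokines. No sort before harvest is stated for them. Fewer cells of a type and less RNA per cell therefore cannot be told apart in any difference given below.

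Most stage labels matched the peak of their marker list. Summed FPKM (fragments per kilobase of transcript, scaled to the mapped reads of the library, a level corrected for gene length and depth) of 7 pluripotency markers was 848 in ESC and 4.12 to 6.14 from HE onwards. The 5 mesoderm markers summed to 352 in MES and 222 in HB, the 8 endothelial markers to 405 in HE, against 88.6 in HB and 73.4 in HP, and the 9 macrophage markers to 1685 in MAC, against 33.6 in HP. The 8 blood progenitor markers summed to 200.8 in HP and 225.3 in MAC, 6 of them being highest in HP and 2, *Ptprc* and *Sfpi1*, in MAC. The 9 fibroblast markers found in that table summed to 116.5 in HE, against 41.1 in HB and 39.9 in HP. From HB to HE the collagens *Col1a1*, *Col1a2* and *Col3a1* were higher, at 22.1, 66.0 and 13.7 FPKM in HE, while *Pdgfra* was lower (16.7 and 4.14 FPKM) and so was *Fbln2* (17.7 and 7.55 FPKM). The libraries labelled FGL went against their label in part: *Tal1*, which they should lack, stood at 7.04 FPKM at day 12 (0.0705 at day 21, and 0.0414 and 0.415 in uFIB), and *Fli1*, which they should carry, at 3.35 FPKM at day 21 (3.43 and 3.018 in uFIB). At day 12 the library labelled FGL also held 7 of 8 blood progenitor markers at 9.69 to 23.9 percent of the SL level, the other, *Runx1*, being at 51.8 percent.

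The bases upstream of the RefSeq start were searched in 8 members (*Fosl1* had no entry in the table used), over 250 bases of build GRCm38.p6, for the AP-1 site TGANTCA, the related TGACNTCA, and TGACG, the short core that CREB and ATF factors bind, which also lies within TGACNTCA when its N is G. Both strands were read. No member held TGANTCA in this window, which 6.75 percent of 32851 promoters did; *Jun* alone held TGACNTCA (7.49 percent of promoters), and *Junb*, *Fos*, *Fosb*, *Batf* and *Atf3* held TGACG (17.8 percent). The windows of *Jun*, *Fos*, *Atf3* and *Junb* are given because the first 3 moved together in the fibroblasts while *Junb* did not. They are written 5' to 3' on the strand of the gene and end at the base before the start, with each match in capitals. *Jun* covers chr4:95052223-95052472 on the minus strand, *Fos* chr12:85473640-85473889 on the plus strand, *Atf3* chr1:191183334-191183583 and *Junb* chr8:84978749-84978998, both on the minus strand.
*Jun*: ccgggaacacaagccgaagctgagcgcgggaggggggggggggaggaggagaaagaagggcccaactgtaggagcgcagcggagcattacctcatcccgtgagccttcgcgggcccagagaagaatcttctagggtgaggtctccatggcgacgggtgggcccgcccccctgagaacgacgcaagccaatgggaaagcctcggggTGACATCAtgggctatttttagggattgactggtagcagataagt
*Fos*: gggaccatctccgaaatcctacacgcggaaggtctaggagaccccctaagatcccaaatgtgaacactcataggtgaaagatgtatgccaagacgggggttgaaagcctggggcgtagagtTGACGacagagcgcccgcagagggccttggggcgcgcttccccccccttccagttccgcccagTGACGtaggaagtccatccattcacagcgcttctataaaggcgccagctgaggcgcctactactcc
*Atf3*: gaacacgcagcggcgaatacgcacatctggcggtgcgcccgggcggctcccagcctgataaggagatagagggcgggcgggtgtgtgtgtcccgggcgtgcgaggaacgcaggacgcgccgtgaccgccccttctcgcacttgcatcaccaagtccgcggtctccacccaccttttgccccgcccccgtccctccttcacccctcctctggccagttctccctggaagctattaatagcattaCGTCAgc
*Junb*: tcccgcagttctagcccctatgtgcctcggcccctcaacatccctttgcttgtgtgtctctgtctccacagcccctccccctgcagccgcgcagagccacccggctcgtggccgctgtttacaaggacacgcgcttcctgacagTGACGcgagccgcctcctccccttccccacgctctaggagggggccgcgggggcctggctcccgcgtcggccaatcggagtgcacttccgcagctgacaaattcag
The match in *Jun* lay 45 to 38 bases before the start. *Fos* had matches at 129 to 125 and at 66 to 62 bases, *Junb* at 106 to 102 bases, and *Atf3* at 7 to 3 bases, on the opposite strand. A match describes letters only, and binding was not analysed here. In the GENCODE annotation exons of the gene itself covered all 250 bases of the *Fosl2* window, 51 of *Batf*, 7 of *Atf3* and 6 of *Fosb*. *Jund* began at chr8:70698949 there, downstream of its window. For *Fosl2* and *Jund* a missing match therefore does not describe the bases before the GENCODE start.

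In the authors' coordinates (mm10, the same build as GRCm38) *Jun* occupied chr4:95049036-95052222, *Junb* chr8:84976909-84978748 and *Jund* chr8:70697739-70700616. *Fos* lay at chr12:85473901-85477270 with *Batf* 209.4 kb further along at chr12:85686720-85709087, *Fosb* at chr7:19302696-19310045, *Fosl1* at chr19:5447698-5457563, *Fosl2* at chr5:32136472-32157839 and *Atf3* at chr1:191170297-191183333. Exons of another gene overlapped 3 of these extents in the GENCODE annotation, those of *Junos* over *Jun*, *Gm11175* over *Jund* and *Ccdc85b* over *Fosl1*, all on the opposite strand. Whether the counting used strand is not given in the sources used here, so for these 3 members reads of the partner cannot be told apart if it did not.

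Across the stages the family was highest in macrophages, with a smaller peak in hemogenic endothelium. Summed over the 9 members, FPKM ran through 92.7 (ESC), 99.1 (MES), 85.9 (HB), 219 (HE), 119.8 (HP) and 844 (MAC). The first 3 stages lay close together, HE lay above both of its neighbours, and MAC lay far above everything else. The members did not share this course equally, as the plot of their values by stage shows.

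**Figure D1:**
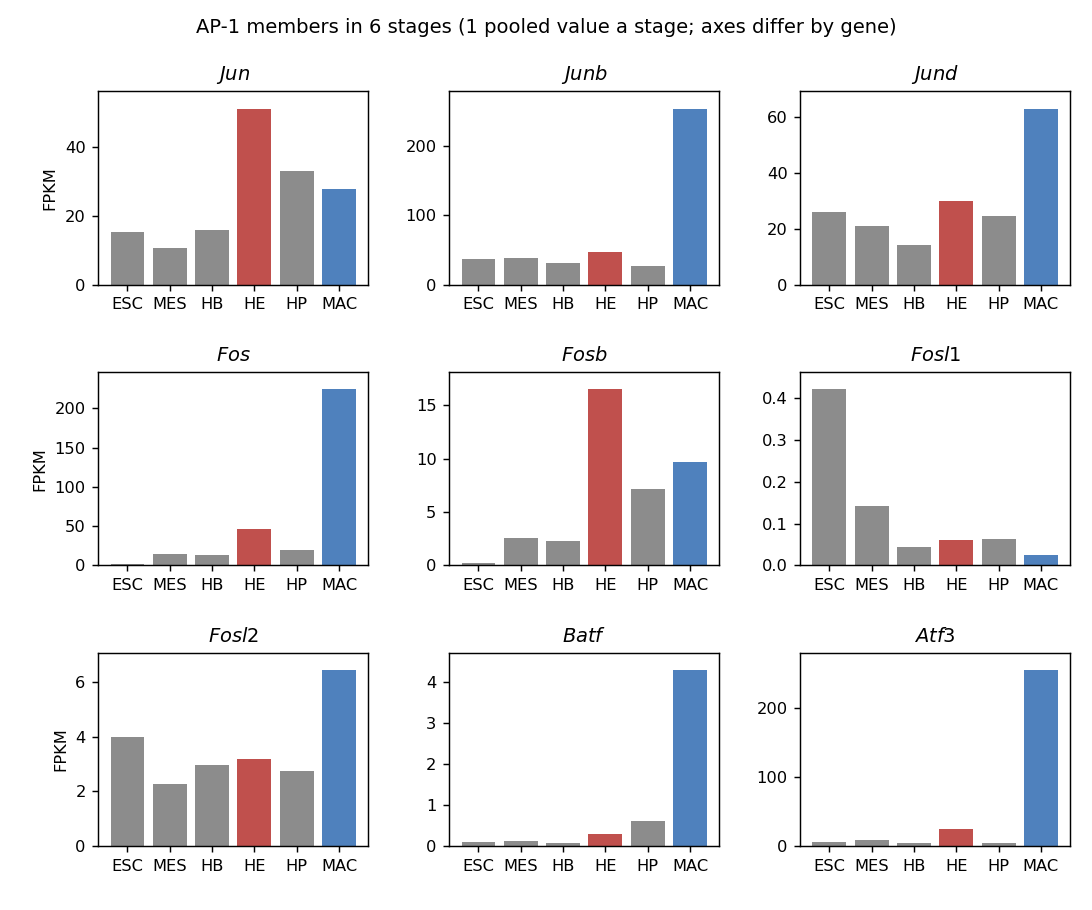
FPKM of each AP-1 member (vertical axis, scaled for each gene) in the 6 stages (horizontal axis); each bar is the authors' single pooled value, with HE in red and MAC in blue. *Jun* and *Fosb* were highest in HE, at 51.3 and 16.5 FPKM, whereas *Junb*, *Fos* and *Atf3* were highest in MAC, at 254, 224 and 255 FPKM.

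Of the JUN group, *Jun* had its lowest level in MES, at 10.8 FPKM, stood at 15.3 in ESC and 15.9 in HB, and reached 51.3 in HE, 33.2 in HP and 28.0 in MAC. It was therefore highest in HE, 3.22-fold above HB, and as deposited it remained above its early levels in HP and MAC. After scaling all stages to the same upper quartile it was at 18.31 FPKM in ESC, 37.26 in HP and 18.87 in MAC, so that MAC stood at about the level of ESC. *Junb*, which can restrain JUN and is prominent in myeloid cells, was at 37.6, 38.9, 31.8, 47.4, 27.3 and 254 FPKM from ESC to MAC. Its values up to HP lay between 27.3 and 47.4, and MAC was 9.31-fold above HP, at percentile 99.0 of all genes there. *Jund*, the most constitutive of the group, was at 26.1, 21.0, 14.2, 29.8, 24.6 and 63.0 FPKM, the smallest span of the 3, at 4.45-fold from lowest to highest. *Jun* and *Junb* thus exchanged rank: *Jun* exceeded *Junb* in HE and HP, and *Junb* exceeded *Jun* in the other 4 stages.

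From MES onwards the FOS group was dominated by *Fos* itself. From ESC to MAC it was at 2.50, 14.3, 13.4, 46.0, 19.3 and 224 FPKM, a span of 89.5-fold and the widest among the 9 members. MES was already 5.69-fold above ESC. *Fosb* was at 0.275, 2.62, 2.26, 16.5, 7.20 and 9.69 FPKM. It shared the MES and HE increases of *Fos*, at 9.51-fold over ESC and 7.30-fold over HB, but not the one in MAC. There it was 1.35-fold over HP as deposited, and the direction turned under upper quartile scaling (log2 differences of 0.38 and -0.27). *Fosl2* lay between 2.28 and 6.41 FPKM in all stages and *Fosl1* at or under 0.422 FPKM. In ESC *Fosl2*, at 3.98 FPKM, exceeded *Fos*, whereas from MES onwards the FRA genes were the smaller part of the FOS group.

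Of the 2 members outside those groups, *Atf3*, a stress-induced factor that limits inflammatory genes in macrophages, was at 6.36, 9.08, 5.24, 24.7, 4.83 and 255 FPKM. HE was 4.71-fold above HB, HP was 5.11-fold below HE, and MAC was 52.7-fold above HP, the largest fold of any member between neighbouring stages. *Batf*, known from lymphocytes, was at or under 0.298 FPKM through HE, at 0.628 in HP and at 4.29 in MAC. Its level in MAC was the only one above 1 FPKM.

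Each step was summarised by counting a gene as higher or lower where log2(FPKM + 1) differed by at least 1, over the 12114 genes with at least 1 FPKM in a stage. Of the 9 members 8 passed that filter (*Batf* through its MAC value alone) and *Fosl1* did not. From ESC to MES 2 members were higher, *Fos* and *Fosb*, where 6.08 percent of all genes were higher and 6.39 percent lower. From MES to HB no member moved that far in either direction, against 2.13 percent of genes higher and 2.78 percent lower. From HB to HE 5 members were higher, *Jun*, *Jund*, *Fos*, *Fosb* and *Atf3*, and none lower, where 7.43 percent of genes were higher and 4.14 percent lower. The median difference was 1.32 over the members and -0.01 over all genes. From HE to HP 3 of those 5 were lower again, *Fos*, *Fosb* and *Atf3*, and none was higher, where 8.21 percent of genes were lower and 4.39 percent higher.

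From HP to MAC 5 members were higher, *Junb*, *Jund*, *Fos*, *Batf* and *Atf3*, and none lower, where 29.8 percent of genes were higher and 12.4 percent lower. This background depended on the scaling: genes past the limit were higher in 70.7 percent of cases as deposited and in 44.1 percent after scaling to the upper quartile, which moved the median of all genes from 0.29 to -0.18. Under that scaling 4 members remained past the limit at this step, and *Jund* was at 0.60. At the HB to HE step *Jund* (1.02 as deposited) was at 0.93 under it, which left 4 members. The differences of *Junb*, *Fos* and *Atf3* from HP to MAC, at 3.17, 3.47 and 5.45 on the log2 scale, were several times the shift of the median.

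The changes in level also changed the make-up of the family, as the plot of shares shows. *Jun*, *Junb* and *Jund* held 85.3 percent of the summed FPKM in ESC, 71.0 to 72.0 percent in MES, HB and HP, 58.6 percent in HE and 40.9 percent in MAC. The 4 FOS genes held 7.75 percent in ESC, 19.5 in MES, 21.8 in HB, 29.99 in HE, 24.4 in HP and 28.5 in MAC. Between HE and MAC the share of *Jun* went from 23.4 to 3.31 percent and that of *Atf3* from 11.3 to 30.2 percent. A share within a column does not depend on how that column was scaled.

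**Figure D2:**
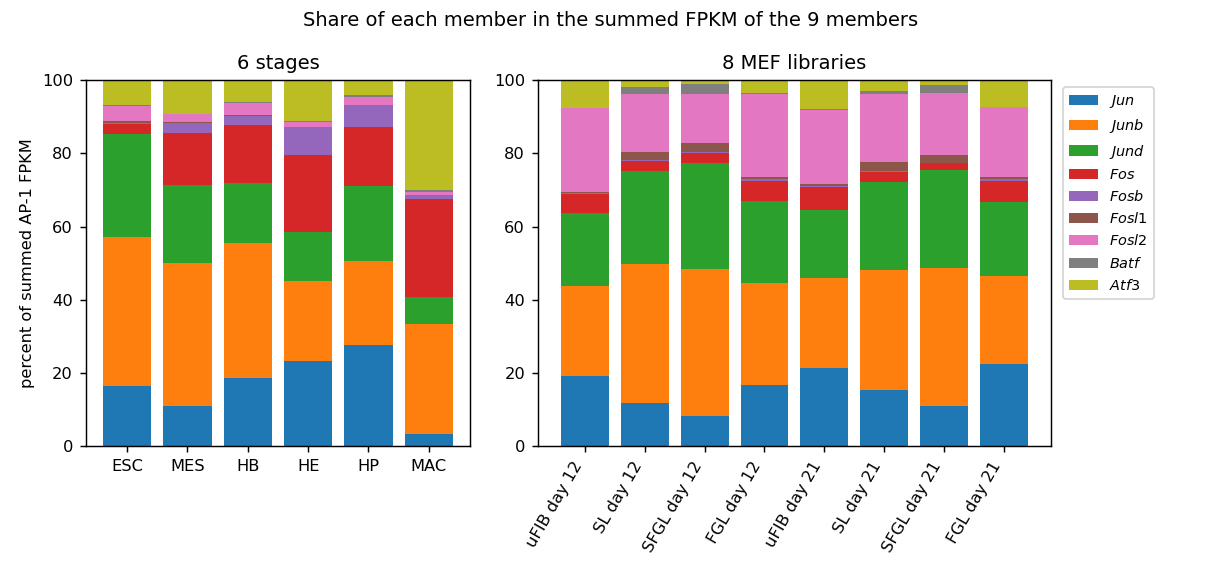
Share of each member in the summed FPKM of the 9 members (vertical axis, percent) in the 6 stages (left) and the 8 fibroblast libraries (right); each bar is 1 column of a table. *Atf3* filled 30.2 percent of MAC, and *Fosl2* filled 13.3 to 22.7 percent of the fibroblast libraries but at most 4.30 percent of a stage.

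The HE peak reached other immediate early genes. From HB to HE 8 of 22 counted genes of that list were higher and 1 lower, with a median of 0.37 (all genes -0.01). The vascular factor *Klf2* was at 1.496 FPKM in HB and 19.2 in HE, *Klf6* at 42.4 and 98.8, *Rhob*, a small GTPase, at 38.3 and 83.0, and *Cyr61*, a matricellular protein, at 20.3 and 54.2. In HP all 4 were lower again, between 4.74 and 32.0 FPKM, and 6 of 22 genes of the list were lower than in HE and 1 higher. From HP to MAC 15 of 22 were higher and 2 lower, where 29.8 percent of all genes were higher and 12.4 percent lower. This list was not counted again under upper quartile scaling. *Rhob* was at 32.0 FPKM in HP and 275 in MAC, and *Egr2* at 0.336 and 33.1. *Egr2* passed the filter on low values only through MAC, so its rise was bound to show.

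Because immediate early genes respond to dissociation and sorting, genes of the heat shock response were read beside them. From HB to HE 0 of 8 counted heat shock genes were higher and 0 lower, at a median of -0.55, and the 9 genes of the list summed to 430.5 FPKM in HB, 264.8 in HE, 264.9 in HP and 179.8 in MAC. *Hspa1a* and *Hspa1b* were at or under 1.16 FPKM from HB onwards, so these sums rested on other genes of the list. The part of handling in the HE and MAC levels was not tested, nor was that of the fibroblast markers in HE given above.

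Partners of AP-1 moved with the members at single points. *Jdp2*, which encodes a repressive partner of JUN, was at 1.48 FPKM in HB, 18.7 in HE and 4.30 in HP, the same peak as *Fosb*. Of 19 counted partner genes 5 were higher in HE than in HB and 0 lower, and from HP to MAC 11 were higher and 1 lower, at a median of 1.04 (all genes 0.29). *Maf*, a large MAF factor of macrophages, was at 0.730 FPKM in HP and 62.5 in MAC, and *Ddit3* (CHOP), of the stress response, at 7.69 and 110.3. The 1 partner that was lower was *Nfe2*, a factor of megakaryocytes and red cells, at 54.5 FPKM in HP and 4.63 in MAC.

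The list of genes upstream of AP-1 held kinases, SRF, its cofactors and *Fbxw7*. From HB to HE 1 of 16 counted was higher (all genes 7.43 percent), *Elk3*, a cofactor of SRF, at 2.29 FPKM in HB and 12.2 in HE. In HP *Elk3* was lower, at 3.62. From HP to MAC 3 of 16 were higher (all genes 29.8 percent). They were *Mapk3* (ERK1), by 2.96 on the log2 scale, *Map2k1* (MEK1), at 20.3 and 68.3 FPKM, and *Fbxw7*, at 6.42 and 14.8 FPKM.

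Genes known as AP-1 targets were counted in the same way. From HP to MAC 14 of 20 were higher and 1 lower, with a median of 2.79 (all genes 0.29). The secreted protein *Spp1* (osteopontin) was at 25.1 FPKM in HP and 11303 in MAC, the chemokine *Ccl2* at 3.35 and 688, the protease *Plau* (urokinase) at 3.93 and 441, and *Mmp12*, macrophage elastase, at 0.0891 and 125. At the HB to HE step the list was mixed, 7 of 20 being higher and 4 lower at a median of 0.08. *Ccnd1* (cyclin D1), among those that were lower, was at 77.8 FPKM in HB and 31.8 in HE. Several of these genes are also characteristic of macrophages or vessels, and AP-1 occupancy was not measured in these tables.

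In the fibroblasts the question was which members changed when blood factors were introduced. In uFIB the family was at 227 and 221 FPKM in all (day 12 and day 21), and its make-up differed from every stage in that *Fosl2* held 22.7 and 20.2 percent of it. *Fosl2*, a member known from mesenchymal cells, exceeded *Fos* in all 8 libraries, whereas *Fos* exceeded *Fosl2* in 5 of 6 stages. The 2 tables were normalized separately, so levels are compared within each of them only. The plot of values by library shows the course of each member.

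**Figure D3:**
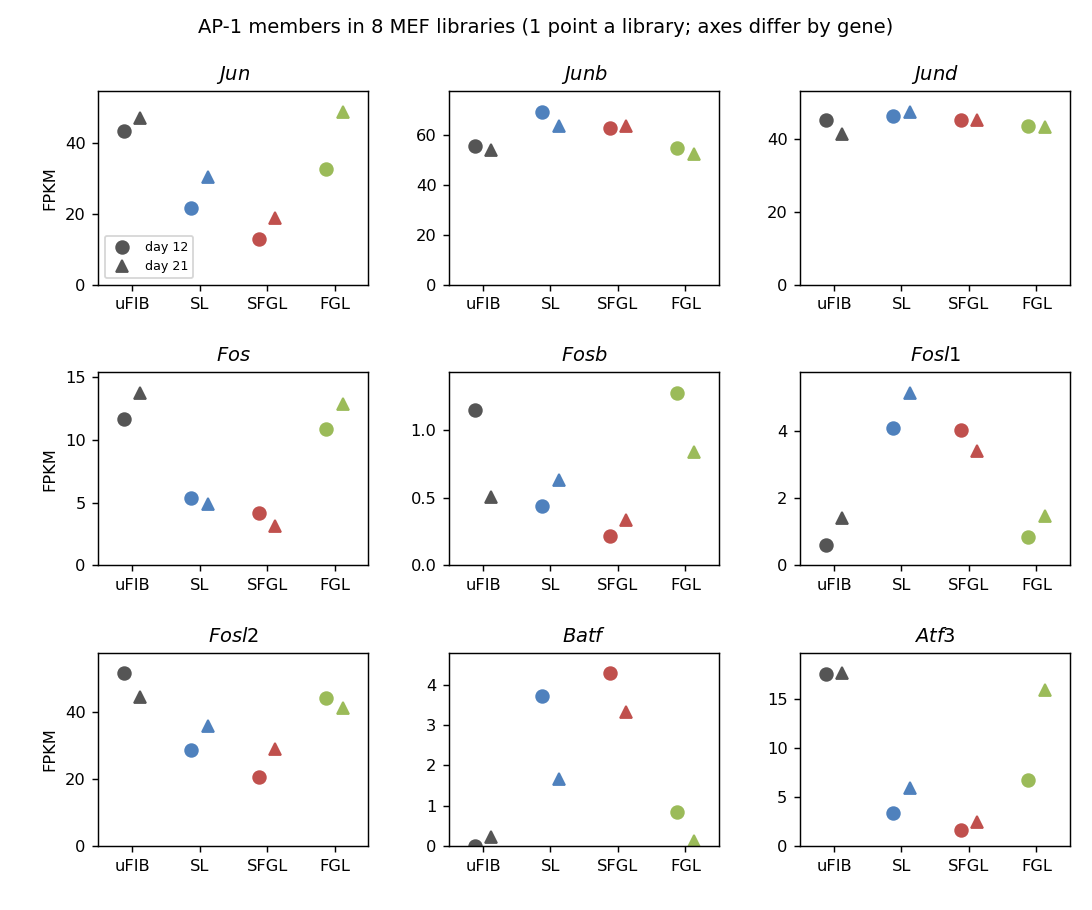
FPKM of each AP-1 member (vertical axis, scaled for each gene) in the 8 MEF libraries, grouped by treatment (horizontal axis); each point is 1 library, a circle for day 12 and a triangle for day 21. *Jun*, *Fos*, *Fosl2* and *Atf3* lay lower in SL and SFGL than in uFIB on both days, *Fosl1* and *Batf* higher, and *Junb* and *Jund* close to level.

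*Jun* was at 43.3 FPKM in uFIB at day 12 and 47.0 at day 21, at 21.7 and 30.3 in SL, at 12.7 and 18.8 in SFGL and at 32.5 and 48.7 in FGL. The SL and SFGL libraries did not overlap with uFIB, and SFGL lay below SL on both days. In limma on log2(FPKM + 1), with treatment and day as additive terms and Benjamini-Hochberg adjustment over 11989 genes, *Jun* fell by 0.79 in SL (SE 0.14, adjusted p = 0.00647) and by 1.48 in SFGL (SE 0.14, adjusted p = 0.000841). The error of this fit measures how far a treatment difference disagreed between the 2 days, 1 library each, and not the spread of replicate cultures.

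*Junb* was at 55.8 and 54.3 FPKM in uFIB, 69.5 and 63.8 in SL, 62.8 and 63.7 in SFGL and 54.9 and 52.5 in FGL. Both SL and both SFGL libraries lay above uFIB, by at most 1.24-fold, and the difference in SL missed the threshold at 0.27 (SE 0.09, adjusted p = 0.05001). It passed with a pseudocount of 0.1 (adjusted p = 0.0450) and without the filter on low values (adjusted p = 0.0367), so *Junb* stands at the limit. *Jund* was at 45.2 and 41.4 FPKM in uFIB, 46.4 and 47.5 in SL, 45.2 and 45.4 in SFGL and 43.6 and 43.4 in FGL. Its differences of 0.12 in SL (95% interval -0.11 to 0.35) and 0.06 in SFGL (-0.16 to 0.29) did not pass.

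*Fos* was at 11.7 and 13.8 FPKM in uFIB, 5.42 and 4.90 in SL, 4.18 and 3.17 in SFGL and 10.8 and 12.9 in FGL. The SL and SFGL libraries lay below all uFIB and FGL libraries, which overlapped, and *Fos* fell by 1.15 in SL (SE 0.17, limma adjusted p = 0.00373) and by 1.56 in SFGL (SE 0.17, adjusted p = 0.00117). *Fosl2* was at 51.6 and 44.5 FPKM in uFIB, 28.8 and 36.0 in SL, 20.7 and 29.0 in SFGL and 44.3 and 41.4 in FGL. It was lower in SL and SFGL on both days, more so at day 12. It fell by 0.94 in SFGL (SE 0.19, adjusted p = 0.00860), and its difference of -0.56 in SL did not pass (SE 0.19, adjusted p = 0.0522). The SFGL call was lost without the day 12 SFGL library (-0.71, adjusted p = 0.0530) or the day 12 uFIB library (-0.72, adjusted p = 0.0560), and the SL difference passed without either SFGL library (adjusted p = 0.0470 and 0.0469) or the day 21 uFIB library (-0.78, adjusted p = 0.0497).

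*Fosl1* went the other way. It was at 0.619 and 1.43 FPKM in uFIB, 4.10 and 5.16 in SL, 4.04 and 3.43 in SFGL and 0.848 and 1.49 in FGL. The SL and SFGL libraries all lay above the others, and *Fosl1* rose by 1.4996 in SL (SE 0.21, adjusted p = 0.00342) and by 1.25 in SFGL (SE 0.21, adjusted p = 0.00464). With relative depths read from the steps of low values, these levels correspond to 17 to 56 reads of *Fosl1* in uFIB and FGL and 73 to 176 in SL and SFGL. *Fosb* was at 1.15 and 0.502 FPKM in uFIB, 0.440 and 0.629 in SL, 0.215 and 0.335 in SFGL and 1.27 and 0.833 in FGL, from 16 to 93 reads. Its mean was under 1 FPKM, so it was not tested, and SL overlapped uFIB.

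*Atf3* had the largest difference among the members that were lower. It was at 17.5 and 17.7 FPKM in uFIB, 3.35 and 5.99 in SL, 1.71 and 2.47 in SFGL and 6.77 and 15.9 in FGL. Every library with introduced *Scl* lay below every other library, and the day 12 library labelled FGL lay between. *Atf3* fell by 1.75 in SL (SE 0.27, limma adjusted p = 0.00423) and had a difference of -2.601 in SFGL (SE 0.27, adjusted p = 0.00105), from 569 and 819 reads in uFIB to 63 and 62 in SFGL. *Batf* was listed at 0 in uFIB at day 12 and was at 0.219 FPKM at day 21, at 3.71 and 1.68 in SL, 4.28 and 3.34 in SFGL and 0.842 and 0.133 in FGL. These values correspond to 0 and 4 reads in uFIB, 74 and 13 in SL, 62 and 33 in SFGL and 12 and 1 in FGL. *Batf* rose by 1.69 in SL (SE 0.29, adjusted p = 0.00661) and by 2.12 in SFGL (SE 0.29, adjusted p = 0.00253), and it passed the filter on low values only through those groups. The SL call was lost without the day 12 SL library (1.39, adjusted p = 0.0521).

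Counted over the family, 8 of the 9 members entered the fit. In SL 3 fell (*Jun*, *Fos*, *Atf3*) and 2 rose (*Fosl1*, *Batf*), and in SFGL 4 fell, *Fosl2* being the fourth, and the same 2 rose. Most genes were called in these comparisons, 27.1 percent lower and 25.4 percent higher in SL, and 30.8 percent lower and 27.9 percent higher in SFGL, so the number of members called is close to the background and nothing is read from it. The size and sign for each member are what the plot of fitted differences adds. SL and SFGL share the uFIB libraries, and their values are given side by side for that reason only.

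**Figure D4:**
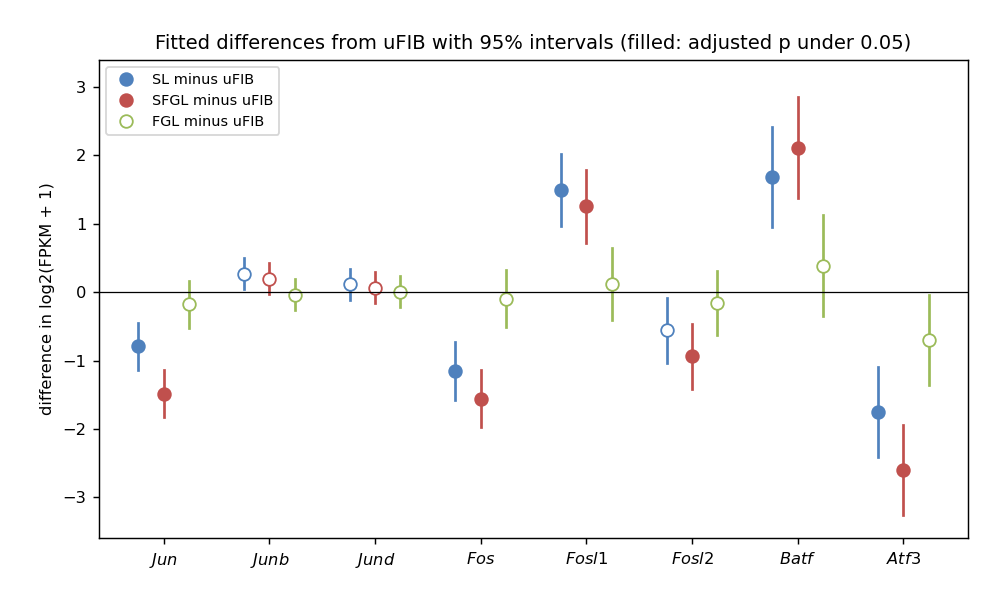
Fitted difference of each treatment from uFIB in log2(FPKM + 1) (vertical axis) for the 8 members in the fit (horizontal axis), over 8 libraries; points are limma estimates, lines their 95% intervals, and filled points have an adjusted p under 0.05. *Atf3* was lowest, at -2.601 in SFGL, *Batf* highest, at 2.12 in SFGL, and every point of FGL was open.

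Fibroblast and blood markers moved in the same libraries. Of 10 fibroblast markers 9 fell in SL and 10 in SFGL, and their summed FPKM was 6172 to 7887 in uFIB, 1800 to 2723 in SL, 1438 to 2257 in SFGL and 6254 to 6850 in FGL. All 8 blood progenitor markers rose in SL and SFGL (4 of them, *Gata1*, *Gfi1b*, *Kit* and *Ptprc*, entered the fit only through those libraries), with sums of 21.6 to 27.0 FPKM in uFIB, 338 to 423 in SL, 507 to 535 in SFGL and 26.3 to 71.2 in FGL. *Myb* and *Sfpi1*, the latter also a macrophage marker, were under 1 FPKM in both uFIB libraries. They entered the fit only through SL, SFGL and the day 12 library labelled FGL. Of the macrophage markers the 5 that could be tested rose in both, 1 of them, *Emr1*, having entered the fit only through SL and SFGL. The list summed to 1196 to 2764 FPKM in SL and SFGL (24.6 and 36.0 in uFIB, 243 and 14.8 in FGL), most of it *Lyz2* (lysozyme), at 1048 to 2525 FPKM. *Csf1r*, the receptor that defines macrophages, was at 0.734 to 1.92 FPKM in SL and SFGL, and *C1qa*, a complement gene of mature macrophages, was listed at 0 in all of those libraries. None of these lists held an AP-1 member.

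Set against the fibroblast markers, the members separated, as the plot of percentages shows. At day 12 the median marker was at 32.0 percent of its uFIB value in SL (SFGL 26.6 percent), and at day 21 at 29.3 percent (SFGL 22.01 percent). In the same order *Jun* was at 49.97 and 29.4 percent at day 12 and 64.4 and 39.9 at day 21, and *Fosl2* at 55.8 and 40.2, and 80.8 and 65.1, both above the median marker throughout. *Fos* was above it too, at 46.4 and 35.8, and 35.6 and 23.0 percent. *Atf3* was below the median marker in 3 of 4 libraries, at 19.1 and 9.76 percent at day 12 and, at day 21, 33.9 percent in SL and 13.97 in SFGL. The part of the make-up of the cultures in these falls was not tested.

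**Figure D5:**
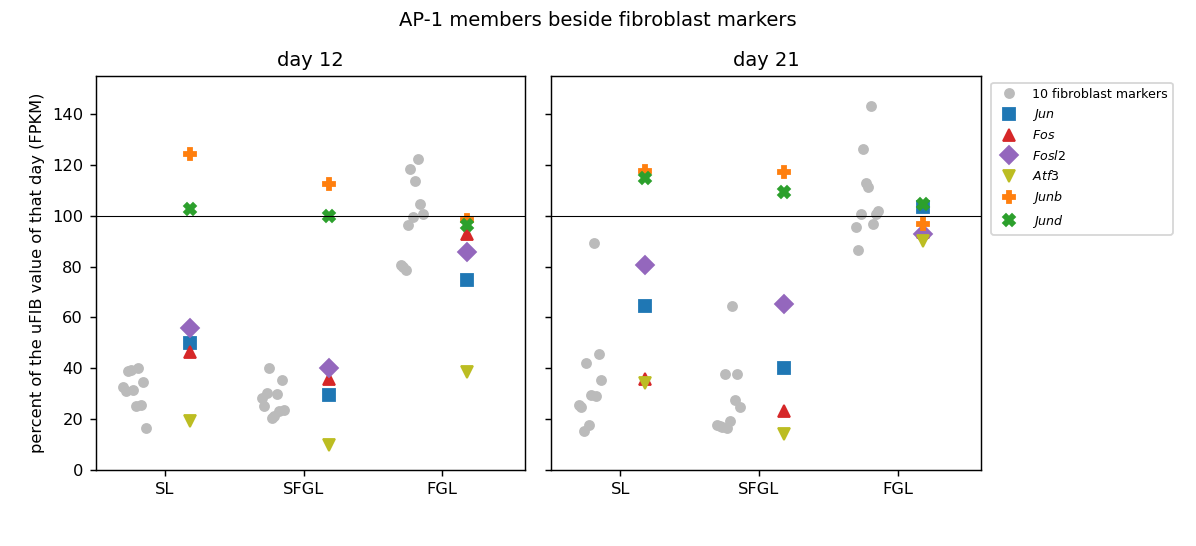
FPKM as percent of the uFIB library of the same day (vertical axis) for 10 fibroblast markers (grey points) and 6 AP-1 members (coloured) in each treatment (horizontal axis), day 12 left and day 21 right; the line marks 100. In SFGL *Atf3* lay below every fibroblast marker on both days, and *Junb* and *Jund* lay at or above 100 percent in SL and SFGL.

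No member was called in the libraries labelled FGL. In limma 2 genes of 11989 were called higher (0.0167 percent) and none lower (0 percent), 179 and 286 having an unadjusted p under 0.05. The largest member difference was that of *Atf3*, -0.70 (95% interval -1.36 to -0.03, adjusted p = 0.931), made up of 6.77 against 17.5 FPKM at day 12 and 15.9 against 17.7 at day 21. The lower value belongs to the library that also held *Tal1* and blood markers, and the part of those cells in it was not tested. For *Jun*, *Fos* and *Fosl2* the intervals were -0.52 to 0.17, -0.51 to 0.33 and -0.63 to 0.31, so falls as large as those in SFGL lay outside them. Fitting SL and SFGL without both FGL libraries left all their calls in place.

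A comparison of SFGL with SL was added after the values had been seen. In limma 0 genes were called higher and 0 lower (0 percent each), 400 and 658 having an unadjusted p under 0.05. *Jun* was lower in SFGL on both days, by 0.69 (SE 0.14, limma adjusted p = 0.376), and *Atf3* by 0.85 (SE 0.27, limma adjusted p = 0.507), and neither passed. Between the days no member was called either, where 1.19 percent of genes were higher and 1.43 percent lower at day 21. *Jun* was higher at day 21 in all 4 treatments, by 0.42 in the fit (SE 0.10, adjusted p = 0.0875). The split of called genes in this comparison depended on the scaling, 45.4 percent being higher as deposited and 58.5 percent after upper quartile scaling.

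The make-up of the family moved towards the JUN group with *Scl* present. *Jun*, *Junb* and *Jund* held 63.6 and 64.6 percent of the summed FPKM in uFIB, 75.03 and 72.3 in SL, 77.5 and 75.4 in SFGL and 66.9 and 66.6 in FGL, without overlap between the libraries with and without introduced *Scl*. Within the group the shares of *Junb* and *Jund* rose and that of *Jun* fell. In SFGL *Junb* held 40.3 and 37.6 percent and *Jun* 8.18 and 11.1, against 24.6 and 24.6 and 19.1 and 21.3 in uFIB. *Jund* held 29.0 and 26.8 percent in SFGL and 19.9 and 18.8 in uFIB. In level *Junb* and *Jund* stayed close to uFIB, as given above, so these are shares of a smaller sum. The summed FPKM of the family was 227 and 221 in uFIB, 183 and 196 in SL, 156 and 169.6 in SFGL and 196 and 217 in FGL.

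Other immediate early genes were mixed in SL. Of 22 tested 7 rose and 2 fell, with a median of 0.23 (all genes -0.03), 1 of those that rose, *Dusp2*, having entered the fit only through SL and SFGL. Over all genes 25.4 percent were higher and 27.1 percent lower in SL. *Ier3*, a survival gene, rose by 1.45 (adjusted p = 0.0249) and *Ier2* by 1.23 (adjusted p = 0.00128). *Zfp36l1*, which destabilises mRNA, fell by 0.94 (adjusted p = 0.00939) and *Gadd45b* by 0.84 (adjusted p = 0.0228). In SFGL 6 rose and 5 fell, at a median of 0.13, where 27.9 percent of all genes were higher and 30.8 percent lower. Of 8 heat shock genes tested 1 rose and 1 fell in SL, and 2 rose in SFGL. None of these counts is read further.

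Of 18 partner genes tested 5 rose and 6 fell in each of SL and SFGL. Over all genes 25.4 percent were higher and 27.1 percent lower in SL, and 27.9 and 30.8 percent in SFGL. The partner counts are close to these shares, and nothing is read from them. *Nfe2* was at 0.149 and 0.783 FPKM in uFIB, 142 and 99.7 in SL and 160 and 145 in SFGL (differences of 6.39, adjusted p = 0.0032, and 6.74, adjusted p = 0.00206). With both uFIB libraries under 1 FPKM, *Nfe2* passed the filter on low values only through treated libraries, which favours a rise. The day 12 library labelled FGL, at 16.5 FPKM, was among them. *Maf*, by contrast, fell by 1.02 in SL (adjusted p = 0.00595) and fell by 1.70 in SFGL (adjusted p = 0.00102). Among 16 upstream genes 4 rose and 1 fell in SL and 1 rose and 3 fell in SFGL, and these counts are not read further either. *Mapk14* (p38 alpha) rose in both, by 1.16 (adjusted p = 0.00129) and 1.31 (adjusted p = 0.000677), and *Elk1*, a partner of SRF at the *Fos* promoter, fell in both, by 0.57 (adjusted p = 0.00993) and 0.86 (adjusted p = 0.00207).

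Genes known as AP-1 targets were read beside the falls of *Jun* and *Fos*. Of 21 tested 9 rose and 1 fell in each of SL and SFGL, at medians of 0.26 and 0.56 (all genes -0.03). Of the genes tested 3, *Mmp9*, *Il1b* and *Tnf*, passed the filter on low values only through SL and SFGL, so their rise was bound to show and neither the count nor the median is read further. *Plaur*, the urokinase receptor, was at 4.45 and 4.11 FPKM in uFIB and 137 and 66.0 in SL (4.19, adjusted p = 0.00105), *Mmp9*, a gelatinase, at 0.186 and 0.650 and 62.5 and 31.4 (5.02, adjusted p = 0.0014), and *Plau* at 13.1 and 9.66 and 83.9 and 115 (3.018, adjusted p = 0.00107). *Ccnd1* was the one that fell, by 1.43 (adjusted p = 0.00346) in SL and 2.03 (adjusted p = 0.000969) in SFGL. *Plaur* and *Mmp9* are also made by blood cells. No gene of the partner, upstream, immediate early, heat shock or target lists was called in FGL.

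Likeness between members differed between the tables. Over the 6 stages the log2(FPKM + 1) profiles of *Atf3* and *Junb* had a Pearson r of 0.979, those of *Fos* and *Fosb* 0.827 and those of *Jun* and *Fosb* 0.836, while *Jun* and *Junb* reached 0.218. Over the 8 MEF libraries *Atf3* and *Junb* ran against each other, at -0.805, and *Atf3* ran with *Fosl2*, at 0.908, and with *Fos*, at 0.915. These coefficients describe 6 pooled values, in which MAC weighs most, and 8 libraries, in which the presence of *Scl* does.

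The genes with the most similar profiles were taken from all genes with at least 10 FPKM in a column, 7157 in the stages and 7903 in the MEFs, so their r is high by selection. In the stages they were *Calcrl*, *Tie1* and *Ets2* for *Jun* (0.973 to 0.980), *Orai1*, *Mcoln1* and *Gdpd1* for *Junb*, *Tmsb4x*, *AI413582* and *Mtmr9* for *Jund*, *Ctbs*, *Aaed1* and *Syap1* for *Fos*, *Ascc3*, *Baz2b* and *Pja2* for *Fosb* and *Fam76a*, *Rab22a* and *Tesk1* for *Atf3*. *Calcrl* and *Tie1* encode receptors of endothelial cells. In the MEFs they were *Gulp1*, *Apod* and *Ssfa2* for *Jun*, *Mrpl45*, *Usp15* and *Pcyt1a* for *Junb*, *Mrgbp*, *Gsdmd* and *Arih1* for *Jund* (0.905 to 0.917), *Tsen34*, *Ano8* and *Sertad4* for *Fos*, *Dyrk2*, *Id3* and *Tspan6* for *Fosl2* and *Sox2* and *Ipo13* for *Atf3*. *Sox2*, known from pluripotent and neural cells, stood closest to *Atf3* there, at 0.992 over 8 libraries.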

How the data were processed

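Total RNA libraries of 10 stage samples and 8 MEF libraries had been sequenced as single-end SOLiD reads. The study's methods name SHRiMP for SOLiD reads, unique alignments to mm10 with duplicates removed, and FPKM from Cufflinks. The labels name TopHat and Cufflinks for the MEFs and Bowtie and HOMER for ESC. Which aligner made each column, and versions, are not given in the sources used here. The deposited FPKM values are relative to transcript length and to the mapped reads of the library, so that a few very high genes lower all others. Read totals were not in these tables. From the steps of values under 0.3 FPKM, depth in the MEF libraries was 0.587 to 1.56 times that of uFIB day 12, and 4 low members came out as whole reads (within 0.12, taking the smallest multiplier that gave them). Rows were summed by gene name. Stages were described without a test. MEF differences were tested on log2(FPKM + 1) with limma 3.58.1 (R 4.3.3; treatment plus day, 3 residual degrees of freedom, trended eBayes, mean of at least 1 FPKM, Benjamini-Hochberg over all genes, called at adjusted p under 0.05), checked on simulated data (for SL against uFIB, all of 200 genes shifted by a log2 difference of 2 were recovered among 11835, with 6 false calls). The shifted genes were drawn only from those above about 10 FPKM, with independent normal noise, and were fewer than the real SL fit called. *Fos*, *Fosl1*, *Batf* and *Atf3* had lower means, so the simulation does not cover genes at their level. Promoter sequences were from RefSeq (GRCm38.p6) and gene overlaps from GENCODE M21. The members, lists and tests were chosen with earlier results of these data known. List genes are named where they had 10 FPKM or more in a column and one of the 6 largest differences of the list; for each member with 10 FPKM or more, the 3 most similar genes are named; some genes that the rule names are not reported here. Alternatives tried were a pseudocount of 0.1, no filter, upper quartile scaling, eBayes without trend, leaving out each library and both FGL libraries, and, for shares, the JUN and FOS groups alone.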

Additional observations from a re-analysis of the deposited data

Results flagged for a closer look

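In 4 cases the 2 days went opposite ways against uFIB, with 1 library a day, and the difference between the days was not tested. On log2(FPKM + 1) *Jun* in the libraries labelled FGL was at -0.405 at day 12 and 0.051 at day 21. *Jund* in FGL was at -0.051 and 0.067. *Batf* in FGL was at 0.881 and -0.105, from 12 reads and 1 read. *Fosb* in SL was at -0.576 and 0.117, with uFIB itself at 1.15 and 0.502 FPKM. The day 12 library labelled FGL, which held *Tal1* and blood markers, is part of 3 of the 4.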

How the results depend on the processing

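No paired analysis was possible because of the replicate numbers, which were merged into 1 column per stage and are not given for the MEFs, whose libraries are matched by day in the reported fit. In the MEFs 4 to 6 members were called in SL (5 in the reported fit) and 5 to 6 in SFGL (6) under the alternatives, and 0 in FGL, in SFGL against SL and between the days. Of 512 member differences recomputed 3 calls were lost and 5 gained, those of *Junb*, *Fosl2* and *Batf* given above, and 21 turned direction, none of them called in either fit. Without 1 library the range was -0.055 to 0.831 for *Batf*, -0.244 to 0.057 for *Fos*, -0.092 to 0.32 for *Fosl1*, -0.377 to 0.058 for *Fosl2*, -0.38 to 0.025 for *Jun* and -0.059 to 0.075 for *Jund* in FGL, -0.002 to 0.132 for *Jund* in SFGL, -0.553 to 0.062 for *Fosl1* in SFGL against SL, and -0.07 to 0.111 for *Fos* and -0.041 to 0.011 for *Jund* between the days. Between the days *Fos* was also at -0.011 with a pseudocount of 0.1 and -0.07 without both FGL libraries, and upper quartile scaling gave 0.003 for *Junb* and 0.031 for *Jund* there and -0.015 for *Jund* in FGL. Calls over all genes in SL numbered 6294 and, without the day 12 SL, day 12 uFIB or day 21 SL library, 3669, 3798 and 3974; in FGL 0 to 22 against 2; and between the days 93 without the filter and 6 to 154 without 1 library against 315. With a pseudocount of 0.1, *Fosl1* from ESC to MES (-1.10), *Batf* from HB to HE (1.05) and *Fosl2* from HP to MAC (1.20) passed the limit of 1, and after upper quartile scaling *Fosb* from HE to HP (-0.94) and *Jund*, as given above, did not. With the JUN and FOS groups alone, *Jun*, *Junb* and *Jund* held 91.7 percent in ESC, 78.6 in MES, 76.8 in HB, 66.2 in HE, 74.4 in HP and 58.9 in MAC, and at day 12 and day 21 68.9 and 70.3 in uFIB, 78.0 and 75.2 in SL, 80.6 and 78.1 in SFGL and 69.6 and 71.9 in FGL. Each member had 1 row, so taking only the highest row changed nothing in the stages. The pooled stage values carry no error, and with 1 library per treatment and day a difference that held on only 1 day could not be tested.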
